A study of Mus musculus with 28 samples.

Results

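The genes described here encode the lysosomal cathepsins A, B, C, D, F, H, L, S and Z and legumain (Ctsa, Ctsb, Ctsc, Ctsd, Ctsf, Ctsh, Ctsl, Ctss, Ctsz and Lgmn). They were selected by symbol from the table of raw read counts, and all 10 were found among its 24391 gene symbols. All 10 also passed the filter on low counts in each comparison. The lysosome breaks down proteins with a mixed set of proteases that differ in their catalytic residue and in whether they cut within a chain or trim its ends. Most are made as inactive precursors, sorted through the Golgi with mannose 6-phosphate tags, and activated in the acid interior by cleavage. Microglia, the resident macrophages of the brain, are known for a large lysosomal compartment that digests synaptic material, myelin and cell debris, and cathepsin S also trims the invariant chain of MHC class II in macrophages.

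Motor cortex was taken from 14 Cx3CR1-Cre/TRAPfl mice, which all carried a Cre driven by Cx3cr1 and a floxed tagged ribosome, so that ribosomes are tagged in cells with Cx3cr1 promoter activity, in brain mainly microglia but also macrophages at its borders. TRAP stands for translating ribosome affinity purification, in which ribosomes with the tag and the mRNA on them are pulled out of the tissue lysate. A TRAP library and a library of the whole lysate were made from each mouse. The run group held 7 mice that spent 1 h on the rotarod and the home cage group 7 mice that did not, which gives 4 groups of 7 libraries, run TRAP, home cage TRAP, run lysate and home cage lysate. Each condition held 4 females and 3 males by label, with 3 mice from cohort 2 and 4 from cohort 1, and the labels call the cohort a batch. Age and strain background were not given in the sources used here.

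The depth of the 7 run TRAP libraries was 104598915 to 241381845 counts and that of the 7 home cage TRAP libraries 104405588 to 157669964. Lysates had 70090518 to 179477632 counts after running and 84399875 to 169315558 in home cage mice. At this depth the lowest count of any of the 10 genes in a library was 684, for Ctsc in a home cage lysate. Of the 28 libraries, 24 had Y-linked transcripts on the side of the labelled sex, and the other 4 came from 2 run mice of cohort 2, so the run results below were also computed without these mice. The labels name microglia as the cell type of every sample, lysates included. All 12 microglial marker genes were higher in TRAP than in lysate, with median log2 fold change 6.42, and their summed level was 16977 to 36252 CPM in the run group and 18049 to 36193 CPM in the home cage group of TRAP, and 388 to 440 CPM in the run group and 412 to 529 CPM in the home cage group of lysate. In lysate the 10 neuronal markers summed to 9090 to 17321 CPM, far above the microglial ones. CPM here means counts scaled to a common library size, with TMM factors over all 28 libraries unless a sentence says otherwise.

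The 10 genes took 3.16% ± 0.456 (SD, n = 14) of all counts in TRAP libraries and 0.226% ± 0.0356 (SD, n = 14) in lysates. In TRAP the share was 3.09% ± 0.353 in run mice and 3.23% ± 0.561 in home cage mice, and in lysate 0.231% ± 0.0326 in run mice and 0.220% ± 0.0401 in home cage mice (SD, n = 7 each). Ctss and Ctsd made up most of this in TRAP, while Ctsb gave the highest counts in lysate. Each gene was higher in the TRAP library than in the lysate of the same mouse in 14 of 14 mice, and all 10 passed the edgeR quasi-likelihood test of TRAP against lysate at an adjusted p of 0.05, where 33.8% of the 16880 genes tested were called higher. Their median log2 fold change was 4.59, beside -0.21 over all genes tested. Of all genes called in this comparison 45.7% were higher in TRAP, and 29.1% when libraries were scaled by their totals, which moved the median of all genes to -0.72, while all 10 proteases were called higher under both, with a median of 4.08 under library totals. In bulk libraries more cells of a type and more RNA per cell cannot be told apart, and the same holds for fewer cells and less RNA.

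**Figure D1:**
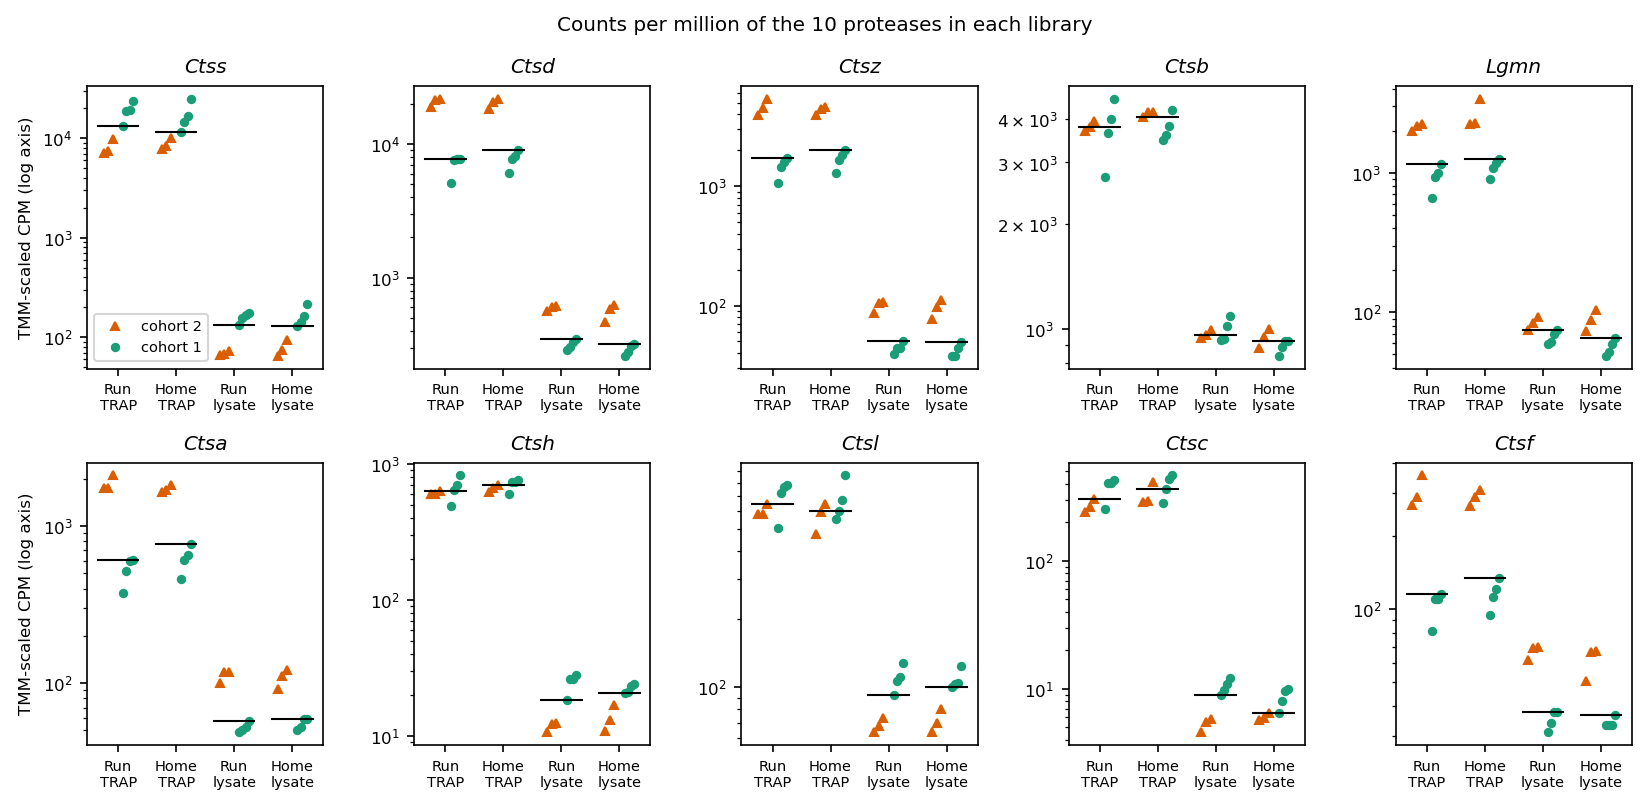
Each panel gives 1 gene, with TMM-scaled CPM on a log axis for the 4 groups of 7 libraries. Triangles are libraries of cohort 2, circles those of cohort 1 and the black line is the group median. In every panel all TRAP libraries lie above all lysates, and run and home cage libraries lie side by side. For Ctss, Ctsd, Ctsz, Ctsa and Ctsf the cohorts form separate bands in both fractions, with cohort 2 lower for Ctss and higher for the others.

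Ctss, the cysteine endopeptidase that stays active at neutral pH, had the largest difference between the fractions. The gene lies at chr3:95526786-95556403 on the plus strand (GRCm38). Its level ran from 7063 to 24978 CPM in TRAP libraries, with a median of 12449 CPM, and from 65.1 to 214 CPM in lysates, with a median of 131 CPM. The ranges of the fractions are far apart. Of all genes tested, 11.8% had every TRAP library above every lysate. The log2 fold change of Ctss was 6.83 ± 0.13 (SE, adjusted p = 1.7e-27, edgeR). For comparison, the microglial genes Cx3cr1, the fractalkine receptor, and Tmem119 stood at 6.92 ± 0.14 and 6.55 ± 0.13, and P2ry12, a purinergic receptor, stood lower at 5.69 ± 0.19 (SE). The 8 markers of border-associated macrophages spanned the same values, from 4.91 for Cd163 to 7.12 for Cbr2.

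Ctsl, Ctsb and Ctsf, also cysteine cathepsins, had the smallest differences of the 10. Ctsl (chr13:64359337-64370890, minus strand), known for broad protein turnover, ranged from 474 to 864 CPM in TRAP, with a median of 623 CPM, and from 63.5 to 128 CPM in lysate, with a median of 96.5 CPM. Its log2 fold change was 2.83 ± 0.09 (SE). Ctsb (chr14:63122462-63145923, plus strand), which cuts within chains and also removes dipeptides from their carboxyl end, ranged from 2721 to 4564 CPM in TRAP, with a median of 3876 CPM, and from 839 to 1092 CPM in lysate, with a median of 942 CPM. Its log2 fold change was 2.02 ± 0.07, so that Ctsb had high counts in both fractions. Ctsf (chr19:4855130-4860918, plus strand), a cathepsin with a long propeptide, had the smallest difference of the 10, 1.89 ± 0.09 (SE). It ranged from 81.3 to 355 CPM in TRAP, with a median of 127 CPM, and from 31.2 to 69.7 CPM in lysate, with a median of 37.8 CPM. For these 3 genes too the lowest TRAP library lay above the highest lysate.

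Ctsc, Ctsz and Ctsh, which mainly trim the ends of chains, came next after Ctss. Ctsc (chr7:88278085-88310888, plus strand), a dipeptidyl peptidase that activates serine proteases of immune granules, had 241 to 465 CPM in TRAP, with a median of 335 CPM, and 4.57 to 12.1 CPM in lysate, with a median of 7.24 CPM. Its log2 fold change was 5.50 ± 0.12 (SE), the second highest, and its level in lysate was the lowest of the 10. Ctsz (chr2:174427493-174439039, minus strand), a carboxypeptidase, had 1065 to 5393 CPM in TRAP, with a median of 1903 CPM, and 38.0 to 112 CPM in lysate, with a median of 49.5 CPM. Its log2 fold change was 5.33 ± 0.11 (SE). Ctsh (chr9:90054152-90076089, plus strand), mainly an aminopeptidase, had 494 to 824 CPM in TRAP, with a median of 657 CPM, and 10.7 to 28.0 CPM in lysate, with a median of 19.6 CPM. The log2 fold change was 5.20 ± 0.13 (SE). Fraction ranges did not overlap for any of these 3 genes.

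Ctsd, Lgmn and Ctsa lay between these groups. Ctsd (chr7:142375911-142388038, minus strand), the main aspartic protease of the lysosome, had 5086 to 21722 CPM in TRAP, with a median of 8565 CPM, and 261 to 628 CPM in lysate, with a median of 338 CPM, a log2 fold change of 4.83 ± 0.10 (SE). Lgmn (chr12:102394084-102439813, minus strand), a cysteine endopeptidase that cuts after asparagine and processes several cathepsins, had 658 to 3381 CPM in TRAP, with a median of 1215 CPM, and 49.0 to 105 CPM in lysate, with a median of 72.2 CPM. Its log2 fold change was 4.36 ± 0.12 (SE). Ctsa (chr2:164832873-164841032, plus strand), a serine carboxypeptidase that also protects beta-galactosidase and the neuraminidase Neu1, had 376 to 2106 CPM in TRAP, with a median of 716 CPM, and 48.8 to 121 CPM in lysate, with a median of 59.3 CPM. Its log2 fold change was 3.68 ± 0.11 (SE). The wide ranges of these 3 genes and of Ctss, Ctsz and Ctsf go with the cohorts, which are compared further on.

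Some of these counts may share reads with a neighbour, because it is not given whether counting used strand. Exons of Ctsb share 774 bases with Fdft1 on the opposite strand, and exons of Ctsa share 495 bases with Pltp and 324 with Neurl2, both opposite. Ctsl shares 1742 bases with the antisense gene model Gm47123 and 395 with the pseudogene Gm49230 on its own strand, and Ctsd shares 808 with the model Gm49369 on its own strand. Ctsz shares 10 bases with Nelfcd. No exon overlap was found for Ctsc, Ctsf, Ctsh, Ctss and Lgmn.

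The order of the TRAP to lysate differences was nearly the same from mouse to mouse. Ctss stood above Ctsc in 14 of 14 mice, and each of Ctsh over Ctsd, Ctsd over Lgmn, Lgmn over Ctsa, Ctsa over Ctsl and Ctsl over Ctsb held in 14 of 14 as well. The neighbours that changed places were Ctsc and Ctsz, with Ctsc higher in 10 of 14 mice, Ctsz and Ctsh, with Ctsz higher in 11, and Ctsb and Ctsf, with Ctsb higher in 10. Ctsz stood above Ctsh in 3 of 6 mice of cohort 2 and 8 of 8 of cohort 1, and Ctsb above Ctsf in 2 of 6 of cohort 2 and 8 of 8 of cohort 1. In the home cage mice alone all 10 genes were called higher in TRAP, where 30.7% of genes were, and in the run mice alone all 10 were called, where 30.1% were. Ctss had 6.89 ± 0.19 after running and 6.76 ± 0.19 in the home cage, and Ctsf had 1.84 ± 0.13 after running and 1.95 ± 0.13 in the home cage (log2 fold change ± SE).

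**Figure D2:**
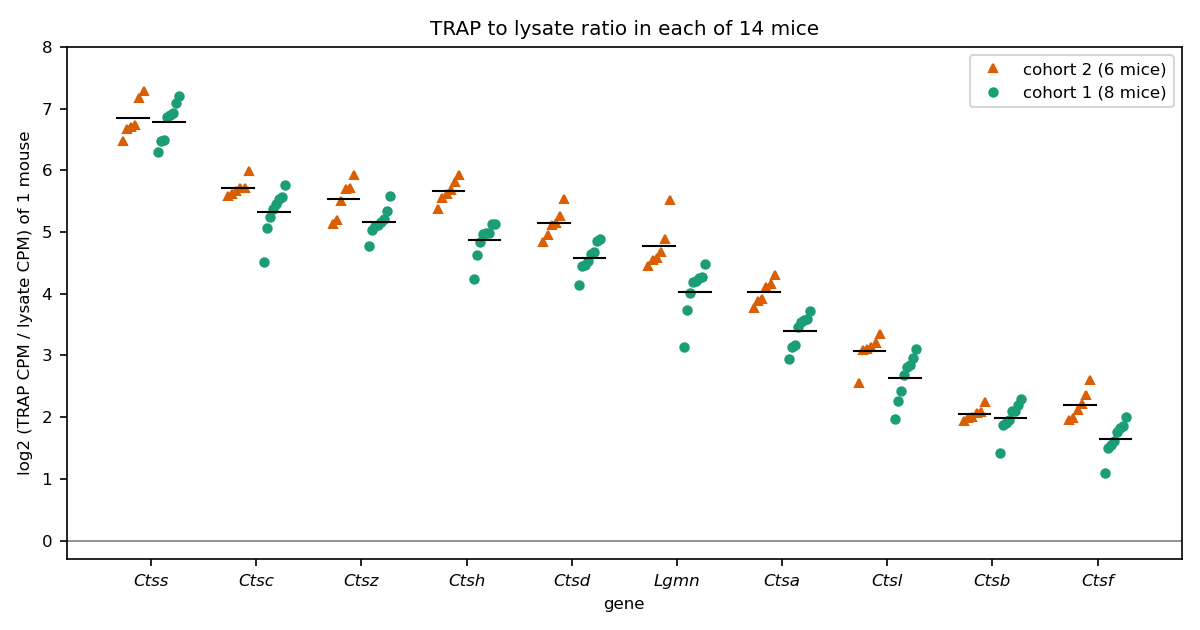
The vertical axis is the log2 ratio of TRAP CPM to lysate CPM within 1 mouse, and genes run along the horizontal axis from the highest to the lowest mean. Triangles are the 6 mice of cohort 2, circles the 8 mice of cohort 1 and black lines cohort means. All 14 points of each gene lie above 0, and cohort 2 lies higher for Ctsh, Lgmn, Ctsa, Ctsd and Ctsf while the cohorts lie together for Ctss and Ctsb.

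Divided by the length of the annotated exons, levels can be set side by side between genes. In TRAP the mean per kilobase was 10196 ± 4457 CPM for Ctss, 5495 ± 2888 CPM for Ctsd, 1958 ± 1072 CPM for Ctsz, 691 ± 335 CPM for Lgmn and 636 ± 72.5 CPM for Ctsb (SD, n = 14). The remaining genes had 233 ± 136 CPM per kilobase for Ctsa, 148 ± 18.7 for Ctsh, 99.0 ± 17.0 for Ctsl, 59.4 ± 13.3 for Ctsc and 37.6 ± 19.5 for Ctsf. This order mixes the cohorts, which differ in it. Ctss lay above Ctsd in 0 of 6 TRAP libraries of cohort 2 and 8 of 8 of cohort 1, and Ctsc above Ctsf in 1 of 6 of cohort 2 and 8 of 8 of cohort 1. Lgmn lay above Ctsb, and Ctsa above Ctsh, in 6 of 6 of cohort 2 and 0 of 8 of cohort 1. By exon length the other 5 pairs of neighbours kept their order in all 14. In lysate the order began with Ctsd, at 179 ± 62.1 CPM per kilobase, and Ctsb, at 157 ± 10.5, before Ctss, at 90.3 ± 36.2 (SD, n = 14). There Ctsd lay above Ctsb in 6 of 6 lysates of cohort 2 and 0 of 8 of cohort 1, and Ctsb above Ctss in 6 of 6 of cohort 2 and 7 of 8 of cohort 1. With coding length in place of exon length, Ctsb moved up in TRAP to stand after Ctss and Ctsd, at 3786 ± 431 CPM per kilobase, with Ctsz next at 3073 ± 1683. In lysate coding length put Ctsb first, at 934 ± 62.2, above Ctsd, at 342 ± 119, in 14 of 14 libraries. With the length of the longest transcript Ctsb had 200 ± 13.3 and Ctsd 198 ± 68.6, with Ctsb above in 8 of 14. The first place of Ctsd in lysate thus depended on the length used. In TRAP coding length put Ctsl above Ctsh in 12 of 14 libraries, where exon length put Ctsh above in 14. The longest transcript put Ctsc above Ctsl in 7 of 14 TRAP libraries, where exon length put Ctsl above in 14.

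Promoter sequences were read from RefSeq (GRCm38.p6) for 8 of the 10 genes, with no entry for Ctsb and Ctsh in the table used. The E-box CACGTG, the core of the motif bound by TFEB and related lysosomal regulators, was searched on both strands between 250 bases before and 50 bases after each start as RefSeq gives it, which can differ from the ends of the genes given above. It occurred in 7.15% of all 32851 promoters of this length, and in 5 of the 10 promoters of these genes, those of Ctsa, Ctsd, Ctsf, Ctsl and Lgmn. The longer palindrome TCACGTGA, which contains it, occurred in 0.974% of all promoters and in those of Ctsa and Ctsd. Ctsa and Lgmn each have 2 promoters in RefSeq. Those at the gene starts given above, chr2:164832622-164832871 for Ctsa and chr12:102439729-102439978 for Lgmn, hold no CACGTG before the start, and the matches lie before the other start, inside the annotated gene. The Ctsl match and the Ctsd match 99 bases before the RefSeq start also lie inside the annotated gene. Only the Ctsf match and the Ctsd match 245 bases before the start lie outside it. Lines below give the 30 bases around each match, 5' to 3' on the gene's strand, because these are the genes that share the motif; capitals mark TCACGTGA or, where that is absent, CACGTG.
Ctsa, chr2:164833743-164833772, plus strand, match starting 13 bases before the start site: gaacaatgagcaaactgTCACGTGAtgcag
Ctsd, chr7:142387908-142387937, minus strand, 99 bases before: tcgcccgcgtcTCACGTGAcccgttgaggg
Ctsd, chr7:142388048-142388077, minus strand, 245 bases before: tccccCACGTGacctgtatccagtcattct
Ctsf, chr19:4855074-4855103, plus strand, 79 bases before: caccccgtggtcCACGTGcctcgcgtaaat
Ctsl, chr13:64370739-64370768, minus strand, 236 bases before: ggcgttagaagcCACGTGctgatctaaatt
Lgmn, chr12:102439124-102439153, minus strand, 49 bases before: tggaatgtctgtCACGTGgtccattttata

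The genes with the 3 largest TRAP to lysate differences, Ctss, Ctsc and Ctsz, had no CACGTG in this window. The motif GAGGAAGT, of the kind bound by the macrophage factor PU.1, was searched on both strands in the same window and occurred in 3.20% of all promoters and in those of Ctss and Ctsc. In Ctsc it lies 151 bases before the start, on the other strand (capitals), and in Ctss it lies after the start, outside the bases shown. The 250 bases before the start of each are given here because these genes stand at the top of the order. A match is a stretch of letters and not a measured binding site, and no match says only that these letters are not in the window.
Ctss, chr3:95526536-95526785, plus strand: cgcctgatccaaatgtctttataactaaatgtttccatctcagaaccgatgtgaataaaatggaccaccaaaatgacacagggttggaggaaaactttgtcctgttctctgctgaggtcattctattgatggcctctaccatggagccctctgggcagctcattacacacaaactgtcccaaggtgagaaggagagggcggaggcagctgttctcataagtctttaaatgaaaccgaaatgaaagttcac
Ctsc, chr7:88277835-88278084, plus strand: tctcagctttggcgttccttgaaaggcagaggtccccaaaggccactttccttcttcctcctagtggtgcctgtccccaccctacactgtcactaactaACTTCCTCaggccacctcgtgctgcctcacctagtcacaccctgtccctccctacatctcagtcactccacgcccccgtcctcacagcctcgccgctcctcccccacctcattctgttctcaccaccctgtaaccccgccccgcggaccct
Ctsz, chr2:174439040-174439289, minus strand: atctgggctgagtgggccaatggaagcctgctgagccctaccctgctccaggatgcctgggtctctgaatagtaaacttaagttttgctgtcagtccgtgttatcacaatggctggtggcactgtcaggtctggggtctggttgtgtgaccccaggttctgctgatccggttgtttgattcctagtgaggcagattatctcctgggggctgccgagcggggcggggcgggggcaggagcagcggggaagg

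The comparison of run with home cage asks whether the mRNA of these proteases changed within 1 h of rotarod exercise. None of the 10 genes passed the edgeR test in TRAP, where 0.0384% of 15644 genes were called, and none did in lysate, where 0.0303% of 16522 genes were called. None had an unadjusted p under 0.05 in either fraction, and DESeq2 also called 0 of the 10 in each. In TRAP the log2 fold changes, run over home cage, ran from -0.27 to 0.06 with a median of -0.08, beside 0.00 over all genes tested. In lysate they ran from -0.09 to 0.11 with a median of 0.07, beside 0.00 over all genes. The run change had a Spearman correlation with the GC content of the longest transcript of 0.46 over 12274 genes in lysate. In TRAP it was 0.13 over 11941 genes. Over the 10 genes it was 0.19 in lysate and -0.08 in TRAP. The part of GC content in the run changes was not tested.

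Lgmn had the largest run difference in TRAP. Scaled within the TRAP libraries, the run mice of cohort 2 had 1665, 1800 and 1875 CPM, and the home cage mice of cohort 2 had 1896, 1905 and 2860 CPM. The run mice of cohort 1 had 558, 778, 873 and 930 CPM, and the home cage mice of cohort 1 had 737, 938, 962 and 1044 CPM. In cohort 2 every run library lay below every home cage library, by a narrow margin for the nearest pair, and in cohort 1 the ranges overlapped. On the scale of all 28 libraries the highest run library of cohort 2, at 2242 CPM, passed the lowest home cage library, at 2233 CPM. The log2 fold change was -0.27 ± 0.13 (SE, 95% interval -0.54 to 0.01) with an unadjusted p of 0.0570 and an adjusted p of 0.999 (edgeR), so it did not pass. By cohort it was -0.32 ± 0.21 in cohort 2 and -0.23 ± 0.18 in cohort 1, and without the 2 mice whose sex-linked transcripts went against the label it was -0.28 ± 0.15 (SE). Without these mice, too, none of the 10 genes was called in either fraction. On the scale of all 28 libraries, Lgmn in lysate had 75.4 to 92.2 CPM in run mice of cohort 2, 74.0 to 105 CPM in home cage mice of cohort 2, 59.8 to 75.0 CPM in run mice of cohort 1 and 49.0 to 65.4 CPM in home cage mice of cohort 1, and the log2 fold change was 0.11 ± 0.10 (SE).

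For the abundant Ctss the run libraries of TRAP had 5880, 6234 and 8168 CPM in cohort 2 against 6700, 7011 and 8448 CPM in the home cage, on the scale within TRAP. In cohort 1 the run libraries had 11295, 15374, 16140 and 20797 CPM, and the home cage libraries had 9439, 11592, 13897 and 22171 CPM. The groups overlap in both cohorts, and the log2 fold change was 0.03 ± 0.17 (SE, 95% interval -0.33 to 0.40). For Ctsd it was -0.07 ± 0.12 (SE, 95% interval -0.33 to 0.19) in TRAP and 0.11 ± 0.08 (95% interval -0.06 to 0.28) in lysate. The widest of the 20 intervals belong to Ctss and to Ctsc in TRAP, for which the change was -0.16 ± 0.15 (95% interval -0.47 to 0.15).

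Within cohorts no gene of the 10 passed either. In cohort 2 the edgeR test called 0% of genes in TRAP and 0% in lysate, and in cohort 1 it called 0.0128% in TRAP and 0% in lysate. Scaled within the fraction, run and home cage libraries overlapped for 7 of the 10 genes in TRAP of cohort 2, where 9.2% of all genes tested did not overlap. The exceptions were Ctsb, Ctsh and Lgmn, each lower in the run mice, Ctsh by 527.3 CPM in the highest run library against 527.4 CPM in the lowest home cage library. All 10 genes overlapped in TRAP of cohort 1, in lysate of cohort 2 and in lysate of cohort 1, where 2.49%, 7.89% and 3.38% of genes did not. On the scale of all 28 libraries Ctsh and Lgmn overlapped in TRAP of cohort 2. Ctsb stayed apart there, with at most 3932 CPM in run mice and at least 4041 CPM in home cage mice, and on that scale it was also apart in lysate of cohort 1, with at least 931 CPM in run mice and at most 926 CPM in home cage mice. The shares of all genes above hold for the scale within the fraction, and none was computed on the scale of all 28 libraries. The difference of the run change between cohort 2 and cohort 1 was called for 0% of genes in TRAP and 0% in lysate. The run change in TRAP minus that in lysate was also called for 0% of genes, with Lgmn at -0.39 ± 0.22 (SE) the farthest from 0 of the 10. Endothelial markers, which are no part of this set, had a median log2 change of -0.29 in TRAP and -0.45 in lysate after running, with 0 of 8 called. Mural markers had -0.38 in TRAP and -0.07 in lysate, also with 0 of 8 called, and the part of these cells in the values above was not tested.

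**Figure D3:**
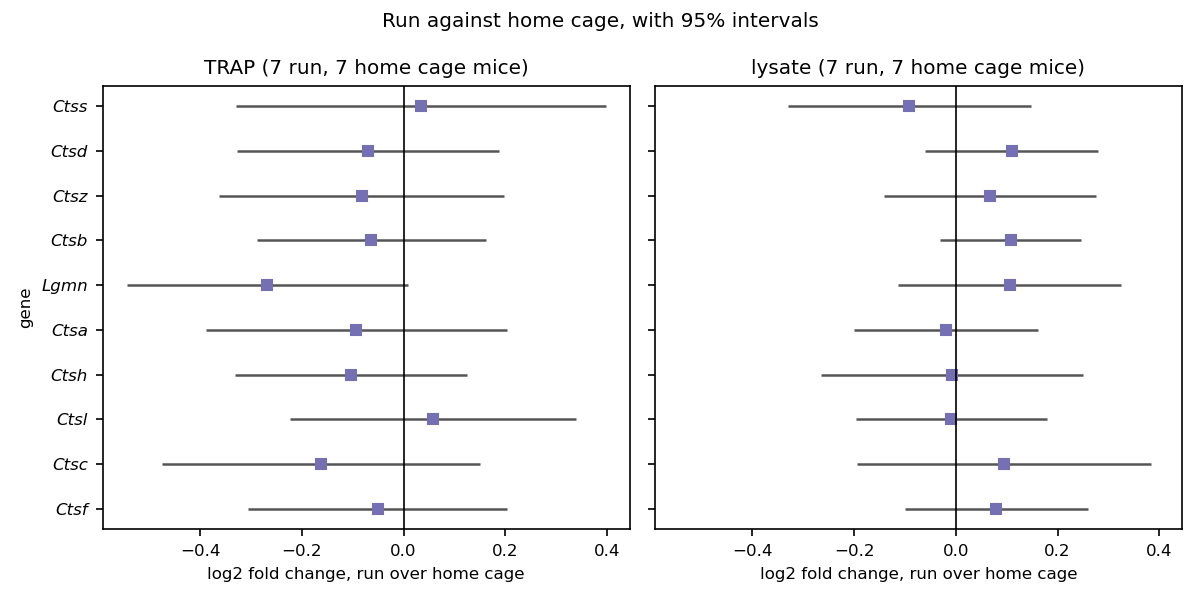
Squares are log2 fold changes of run over home cage from edgeR with cohort in the fit, and lines are 95% intervals, for TRAP in the left panel and lysate in the right. Each of the 20 intervals includes 0, and the interval of Lgmn in TRAP, from -0.54 to 0.01, reaches farthest below it.

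The cohorts differed far more than the conditions. Between cohort 2 and cohort 1, 63.3% of genes were called in TRAP and 69.6% in lysate, so that a call for one of the 10 genes is close to the rule among all genes. In TRAP Ctsa, Ctsd, Ctsf, Ctsz and Lgmn were higher in cohort 2, Ctss was lower, and Ctsb, Ctsc, Ctsh and Ctsl did not pass. Ctsd averaged 20328 ± 1557 CPM in the 6 TRAP libraries of cohort 2 and 7361 ± 1226 CPM in the 8 of cohort 1 (SD), a log2 fold change of 1.47 ± 0.12 (SE, adjusted p = 2.0e-08, edgeR). Ctss averaged 8439 ± 1273 CPM in cohort 2 and 17901 ± 4799 CPM in cohort 1, a log2 fold change of -1.09 ± 0.18 (SE, adjusted p = 3.2e-05, edgeR). The ranges of the cohorts do not overlap for either gene, and per kilobase Ctss lay above Ctsd in the 8 TRAP libraries of cohort 1 and below it in the 6 of cohort 2.

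The remaining calls in TRAP were 1.64 ± 0.14 for Ctsa, 1.51 ± 0.13 for Ctsz, 1.43 ± 0.12 for Ctsf and 1.23 ± 0.13 for Lgmn (log2 fold change ± SE, cohort 2 over cohort 1). In lysate the same 5 genes were higher in cohort 2, by 1.14 ± 0.10 for Ctsz, 1.01 ± 0.09 for Ctsa, 0.90 ± 0.08 for Ctsd, 0.86 ± 0.09 for Ctsf and 0.47 ± 0.10 for Lgmn. Lower in lysate of cohort 2 were Ctss by a log2 value of -1.15 ± 0.12, Ctsh by -0.91 ± 0.13, Ctsc by -0.76 ± 0.14 and Ctsl by -0.67 ± 0.09, while Ctsb stood at -0.01 ± 0.07. Ctsb had the smallest cohort difference of the 10 in either fraction, with 3972 ± 202 CPM in TRAP of cohort 2 and 3759 ± 553 CPM in TRAP of cohort 1, and 956 ± 42.3 CPM in lysate of cohort 2 and 945 ± 78.0 CPM in lysate of cohort 1 (SD, n = 6 and 8).

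These cohort differences ran alongside the GC content of the transcripts. The longest annotated transcript of Ctsz has 57.3% GC, that of Ctsf 56.6%, Ctsd 55.9%, Ctsa 54.5% and Lgmn 51.8%, and these are the 5 genes higher in cohort 2. Ctsh has 50.1%, Ctsb 49.2%, Ctss 46.0%, Ctsl 44.3% and Ctsc 41.1%. Spearman's correlation of GC content with the cohort difference was 0.87 over the 10 genes in TRAP and 0.82 in lysate, and 0.78 over 11941 genes in TRAP and 0.82 over 12274 genes in lysate. These are descriptions across genes, which share the same libraries and are not independent. Genes with a GC content within 1 percentage point had a median cohort difference in TRAP of 1.04 around Ctsd, of 0.88 around Ctsa, of -0.58 around Ctss and of -1.32 around Ctsc, where these genes themselves stood at 1.47, 1.64, -1.09 and -0.35. In lysate Ctsh was the farthest from its neighbours, at -0.91 where genes of similar GC content had a median of 0.07. The part of GC content in the cohort differences was not tested.

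**Figure D4:**
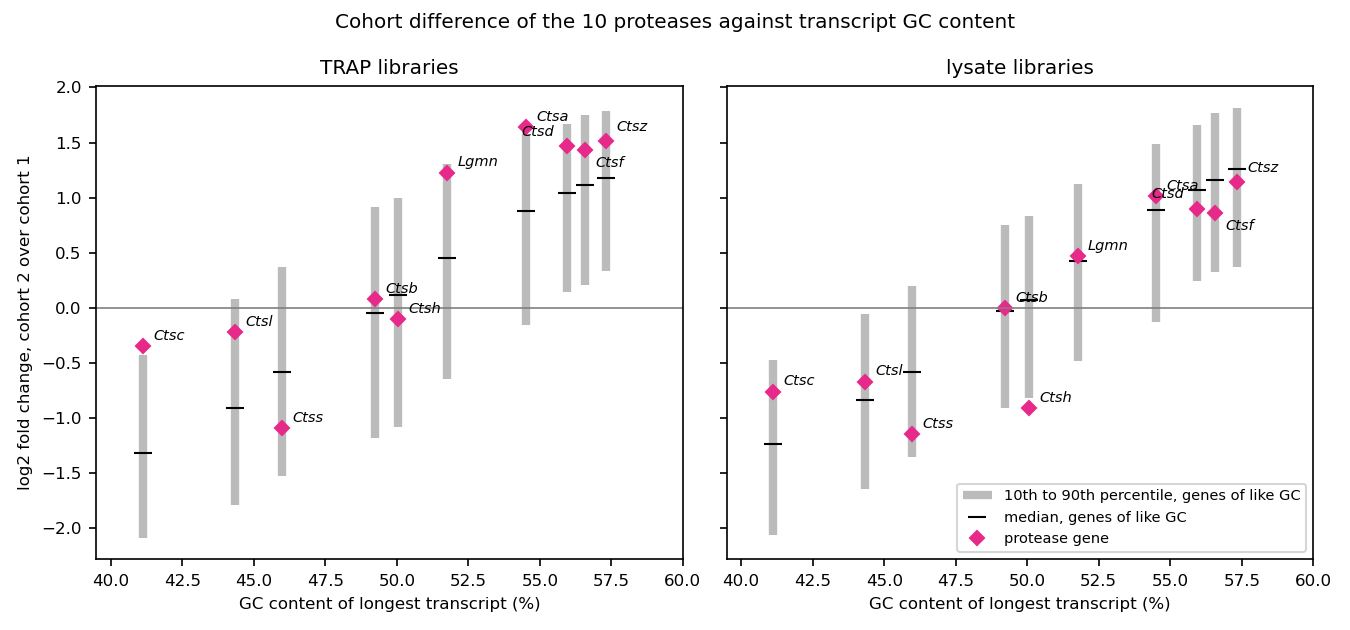
The horizontal axis is the GC content of the longest transcript in percent and the vertical axis the log2 fold change of cohort 2 over cohort 1, in TRAP on the left and lysate on the right. Diamonds are the 10 protease genes, and grey bars with a black tick give the 10th to 90th percentile and the median of genes within 1 percentage point of GC content. The diamonds rise with GC content as the ticks do, with Ctsc in TRAP above and Ctsh in lysate below the grey bar at their GC content, and Ctsa in TRAP just above its bar.

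The TRAP to lysate difference itself could be compared between cohorts, since both libraries of a mouse belong to the same cohort. In cohort 2 all 10 genes were called higher in TRAP, where 31% of genes were, and in cohort 1 all 10 were, where 31.1% were. The difference was larger in cohort 2 for all 10 genes by sign. Genes within 1 percentage point of their GC content had medians from -0.09 around Ctsz to 0.03 around Lgmn. The test of the difference between cohorts, which called 20.1% of genes in either direction, called 5 of the 10, all higher in cohort 2. The share of all genes called higher in cohort 2 alone is not given here. Ctsh had a log2 fold change of 5.65 ± 0.15 in cohort 2 and 4.87 ± 0.12 in cohort 1 (SE), a difference of 0.78 ± 0.16 (adjusted p = 0.00108, edgeR). Lgmn had 4.78 ± 0.15 in cohort 2 and 4.05 ± 0.13 in cohort 1, a difference of 0.73 ± 0.17 (adjusted p = 0.00345, edgeR). Ctsa differed by 0.61 ± 0.16, Ctsd by 0.54 ± 0.15 and Ctsf by 0.54 ± 0.14, while Ctss differed by 0.04 ± 0.21 and Ctsb by 0.06 ± 0.12, with intervals of -0.39 to 0.48 and -0.19 to 0.31. Without the home cage mouse Female2 of cohort 1 the calls for Ctsd, at 0.40, and Ctsf, at 0.41, were lost and 3 genes stayed called. This difference had a Spearman correlation with GC content of 0.27 over the 10 genes and of -0.04 over all genes.

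Across the 14 TRAP libraries, with the mean of each cohort taken off, the log2 CPM of the 10 genes varied together to different degrees. All 45 pairs had a positive Pearson's r, from 0.17 for Lgmn with Ctsl to 0.96 for Ctsz with Ctsf, with a median of 0.67. Ctsa, Ctsd, Ctsf and Ctsz formed the tightest group, in which every pair lay between 0.92 and 0.96. Ctss was closest to Ctsl, at 0.88, and Ctsc, at 0.84, and Ctsb to Ctsh, at 0.87. These values are descriptions, since the points share the depth and the purity of the library, and run TRAP of Male2 in cohort 1 was the lowest of its group and cohort for all 10 genes. Some of the genes that varied together also had similar GC content of the longest transcript. It was 54.5% to 57.3% for Ctsa, Ctsd, Ctsf and Ctsz, and 41.1% to 46.0% for Ctsc, Ctss and Ctsl. Ctsb had 49.2% and Ctsh 50.1%. Other pairs crossed these groups. Ctsc had 0.81 with Ctsb and 0.81 with Ctsh, above its 0.78 with Ctsl. Ctsh had 0.77 with Ctsa, 0.77 with Ctsd and 0.76 with Ctsz. The part of GC content in these correlations was not tested. Among 11544 genes with a mean log2 CPM of at least 1, those most like Ctss were Rfk, at 0.94, Dennd6a, at 0.93, and N4bp2l1, at 0.93. Those most like Ctsd were Tcn2, at 0.96, Slc38a10, at 0.95, and Cd81, at 0.94, and those most like Ctsf were Ctsz, at 0.96, Fcgrt, at 0.94, and C1qa, at 0.94.

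**Figure D5:**
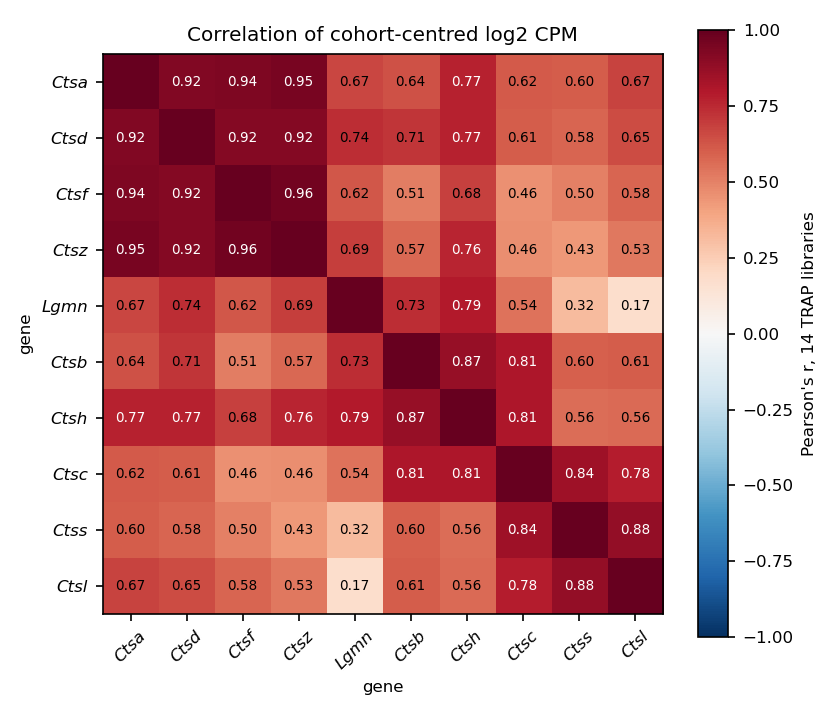
Each cell gives Pearson's r of the cohort-centred log2 CPM of a pair of genes over 14 TRAP libraries, on a colour scale from -1 to 1. Ctsa, Ctsd, Ctsf and Ctsz form a dark block at 0.92 to 0.96. Ctsc, Ctss and Ctsl form a second one at 0.78 to 0.88, and Ctsc also belongs to a block with Ctsb and Ctsh at 0.81 to 0.87. Lgmn with Ctsl is the palest pair at 0.17.

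Further genes of the same pathway were taken from lists and compared between the fractions. Of 5 other cathepsins, 4 were tested. Ctse, an aspartic protease of immune cells, had 1359 counts over all TRAP libraries and 2 over all lysates, a ratio of 901 with a 95% exact interval of 249 to 7449 that covers counting error only. Ctsw, a protease of cytotoxic lymphocytes, was higher in TRAP by 3.80 ± 0.89, with 7 of 14 lysates at 0 counts, and Ctso by 1.67 ± 0.13, while Ctsk, the collagen-cutting protease of osteoclasts, was lower, at -1.40 ± 0.21 (log2 fold change ± SE). Of the 1411 counts of Ctsw over all TRAP libraries 546 came from 1 library, and 2 of 14 TRAP libraries had 0. Ctsg, a neutrophil serine protease, had 0 counts in TRAP and 13 in lysate, all in 1 of the 14 lysates. Of 8 placental cathepsins, which rodents carry in a separate cluster, 0 passed the filter.

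The other lysosomal peptidases were called higher in TRAP, 6 of 6, led by the carboxypeptidase Prcp at 3.61 ± 0.12, the aspartic protease Napsa at 3.32 ± 0.56 and the carboxypeptidase Scpep1 at 3.17 ± 0.11, with Cpq last at 0.35 ± 0.12 and not called when libraries were scaled by upper quartiles or by their totals. Of 9 protease inhibitors 6 were tested, 3 were higher and 2 lower. Cystatin C (Cst3), a secreted inhibitor of cysteine cathepsins, had 46994 to 181388 CPM in TRAP and 1928 to 2932 CPM in lysate, a log2 fold change of 5.11 ± 0.12. Its mean over TRAP libraries, 85551 CPM, was above the summed level of all 10 proteases, which averaged 38000 CPM in run TRAP and 37962 CPM in home cage TRAP. Cystatin F (Cst7), which is targeted to lysosomes, was higher by 7.18 ± 0.62, with 7 of 14 lysates at 0 counts, and the cytosolic cystatin B (Cstb) by 0.84 ± 0.11. The serpin Serpinb1a, an inhibitor of granule serine proteases, was lower at -2.22 ± 0.17 and cystatin E/M (Cst6) at -1.63 ± 0.16. Serpinb6a did not pass at -0.06, but was called lower at -0.27 with upper quartiles and -0.57 with library totals.

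Genes of sorting and tagging were mixed. Of 8, 6 were higher in TRAP and 2 lower. Nagpa, which uncovers the mannose 6-phosphate tag in the Golgi, was higher by 3.85 ± 0.13, the receptor Scarb2 by 1.81 ± 0.09 and the smaller mannose 6-phosphate receptor M6pr by 1.68 ± 0.08. The large mannose 6-phosphate receptor Igf2r was lower at -1.62 ± 0.21, and so was Gnptab, a subunit of the enzyme that begins the tag, at -0.90 ± 0.11. Sort1 and Gnptg were both at 0.28 and were called lower, at -0.23 and -0.24, when libraries were scaled by their totals. Among 4 partners of cathepsin A and the saposins, Grn, the precursor of granulins, was higher by 5.57 ± 0.11, Glb1, beta-galactosidase, by 1.54 ± 0.12 and Psap, prosaposin, by 1.37 ± 0.08, while Neu1 did not pass at 0.10 ± 0.09. Neu1 stood at -0.11 with upper quartiles, and was called lower at -0.42 with library totals (adjusted p = 9.5e-05, edgeR).

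All 4 factors of the MiT family, transcription factors that bind CACGTG, were higher in TRAP. Tfec stood at 4.92 ± 0.97, with 9 of 14 lysates at 0 counts, Tfeb at 2.88 ± 0.15, Tfe3 at 2.19 ± 0.08 and Mitf at 2.16 ± 0.16 (log2 fold change ± SE). No gene of these lists was called between run and home cage in either fraction. Markers of some other cells were also higher in TRAP, 8 of 8 for border-associated macrophages, with a median of 6.11, and 7 of 8 for endothelial cells, with a median of 2.38. For mural cells, 4 of 8 were called higher, with a median of 0.60, while Pdgfrb, at -0.17, and Acta2, at -0.40, did not pass. With library totals 2 mural markers were called higher and 2, Pdgfrb and Acta2, lower. The mural markers summed to 56.1 to 243 CPM in TRAP of run mice and 60.3 to 272 CPM in TRAP of home cage mice, and to 37.2 to 93.1 CPM in lysate of run mice and 34.6 to 96.1 CPM in lysate of home cage mice. The macrophage markers summed to 840 to 1770 CPM in TRAP of run mice and 914 to 1460 CPM in TRAP of home cage mice, and to 16.2 to 25.6 CPM in lysate of run mice and 15.4 to 26.1 CPM in lysate of home cage mice. Of the 8 markers of peripheral myeloid cells 6 were tested, 3 were higher and 1 lower, they summed to at most 19.9 CPM, and Camp was at 0 in every TRAP library. Neuronal markers were lower in TRAP, 10 of 10, and so were 7 of 8 each for astrocytes and oligodendrocytes. The share of these cell types in the levels of the 10 proteases was not tested.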

How the data were processed

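The 28 libraries were polyA RNA libraries prepared with Nextera XT, per the labels' protocols. The deposited values are raw read counts per gene symbol. The submitters' processing notes name STAR 2.7.7a, featureCounts, DESeq2 and GRCm38, without saying what each was used for. No source used here gives the annotation, the use of strand or the handling of reads with several matches. Counts of near-identical or overlapping genes may therefore be shared. No columns of other samples were present (0). Mitochondrial genes were not analysed here.

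Counts were tested with edgeR 4.0.16 (R 4.3.3, limma 3.58.1), by quasi-likelihood with TMM factors and the filter filterByExpr, and calls were made at a Benjamini-Hochberg adjusted p of 0.05 over all genes tested. For run against home cage, each fraction was fitted on its own with cohort as a term. TRAP and lysate were compared over all 28 libraries with group and cohort in the fit, which does not tie the libraries of a mouse. The fit with a block for the mouse was an alternative, and the numbers pair TRAP and lysate because both come from 1 animal, although their deviations from group means correlated by -0.52 to 0.38 over 14 mice. DESeq2 1.42.0, other scaling factors, no filter and leaving out each library were further alternatives. Intervals are 95% intervals from the edgeR fit, and for Ctse an exact interval of the counts. Replicates are separate mice, and no pair of libraries agreed within sampling noise (lowest chi-square per degree of freedom 67.5).

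Positions, exon lengths and GC content came from GENCODE vM21 (GRCm38), which held 95.7% of the symbols. The 10 genes and all lists were chosen with earlier results of these data known, and the comparison with genes of similar GC content was added after cohort differences had been seen. Of each pathway list up to 3 genes called higher and up to 3 called lower in TRAP were named by size, and Cpq, Sort1, Gnptg, Neu1, Ctsg and Camp were named in addition after their values were seen. The genes most like Ctss, Ctsd and Ctsf are the 3 with the highest correlation. Scripts used Python 3.11.15 with pandas 2.3.3, numpy 2.4.6 and matplotlib 3.10.9, and the fits were tested on simulated data.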

Additional observations from a re-analysis of the deposited data

Results flagged for a closer look

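In 5 of 40 groups of 4 libraries of cohort 1, 1 library stood apart from the rest of its group by Dixon's gap test, which flags about 1 in 20 groups by chance. No library was flagged in the 40 groups of 7 libraries, which pool the cohorts and hold the same cohort 1 libraries. Groups of different genes share libraries, so the flags are not independent. In run TRAP of cohort 1 the mouse Male2 had 252 CPM for Ctsc where the other 3 had 403 to 426 CPM, 5086 CPM for Ctsd where they had 7560 to 7676 CPM, and 81.3 CPM for Ctsf where they had 110 to 116 CPM. In home cage TRAP of cohort 1 the mouse Female2 had 603 CPM for Ctsh where the others had 737 to 761 CPM. In home cage lysate of cohort 1 the mouse Male2 had 36.8 CPM for Ctsf where the others had 33.4 to 33.6 CPM.

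The TRAP to lysate difference itself differed between cohort 2 and cohort 1 for 5 genes in the edgeR test of that difference, by 0.78 for Ctsh (adjusted p = 0.00108), 0.73 for Lgmn (adjusted p = 0.00345), 0.61 for Ctsa (adjusted p = 0.00726), 0.54 for Ctsd (adjusted p = 0.00869) and 0.54 for Ctsf (adjusted p = 0.00712), all on the log2 scale and higher in cohort 2.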

How the results depend on the processing

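All 10 genes were called higher in TRAP than in lysate, and 0 of 10 between run and home cage in either fraction, under each alternative run. With the replicate block for the mouse, 10 of 10 were called in TRAP against lysate, with Ctss at 6.81 and Ctsf at 1.89. With run and home cage mice of the same number as a block, Lgmn in TRAP stood at -0.26, still not called, and 0 of the 10 genes were called in either fraction. The deviations of same-numbered libraries correlated over 0.1 in 2 of 7 pairs in TRAP and 1 of 7 in lysate. This cannot decide whether the numbers mark pairs, since TRAP and lysate of 1 mouse passed 0.1 in only 6 of 14 mice. The count of genes whose TRAP to lysate difference differed between cohorts was 3 to 6 when 1 mouse was left out, with 3 without the home cage mouse Female2 of cohort 1 and 6, Ctsl added, without the home cage mouse Female2 of cohort 2. With RLE size factors Ctsl was also called, at 0.49. Ctsc in TRAP was called lower in cohort 2, at -0.40, with RLE size factors.

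Changes of sign were seen only in values that had not passed a test, and the cause was not tested. In TRAP these run changes were Ctss at -0.018 under library totals, and in cohort 2 alone Ctsa at 0.095, Ctsd at 0.0093, Ctsf at 0.057, Ctss at -0.13 and Ctsz at 0.069. In lysate they were Ctsa at 0.0066, Ctsh at 0.043 and Ctsl at 0.00072 with no cohort term, Ctsh at 0.014 and Ctsl at 0.033 without the mice whose sex-linked transcripts went against the label, Ctsh at 0.14 and Ctsl at 0.021 in cohort 1 alone, and Ctsa at 0.054, Ctsc at -0.19 and Lgmn at -0.085 in cohort 2 alone. The run change in TRAP minus that in lysate was -0.028 for Ctsl without those mice. With 1 library or mouse left out, the run change in TRAP ranged over -0.151 to 0.00467 for Ctsa, -0.123 to 0.00143 for Ctsd, -0.114 to 0.0191 for Ctsf and -0.0596 to 0.179 for Ctss, and that in lysate over -0.0668 to 0.00645 for Ctsa, -0.0578 to 0.0779 for Ctsh and -0.0572 to 0.0318 for Ctsl. By the same check the run change in TRAP minus that in lysate ranged over -0.147 to 0.052 for Ctsa, -0.213 to 0.0238 for Ctsh and -0.0171 to 0.212 for Ctsl, the run change in lysate of cohort 2 ranged over -0.189 to 0.058 for Lgmn and the run change in TRAP of cohort 2 minus that of cohort 1 ranged over -0.221 to 0.12 for Lgmn. The difference of cohort 2 from cohort 1 in lysate ranged over -0.0696 to 0.0216 for Ctsb, and the TRAP to lysate difference of cohort 2 minus that of cohort 1 ranged over -0.0668 to 0.13 for Ctsb and -0.0841 to 0.136 for Ctss.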
